A study of Mus musculus with 4 samples.

Results

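The 10 genes described here are Myt1l and its relative Myt1, which encode zinc finger transcription factors of neurons, and 8 genes for neuronal RNA-binding proteins: Elavl2, Elavl3, Elavl4, Rbfox1, Rbfox2, Rbfox3, Nova1 and Nova2. They are 10 of the 32286 features in the gene table. The list was selected on values measured in these same libraries, with Myt1l already known to be higher in YSG tumours, so the levels below are a description and carry no test. All 10 were found by symbol, and each passed the filter used for comparisons across genes, at least 5 CPM in 1 of the libraries compared, where CPM is the UMIs of a gene scaled to the same total in every library.

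The cells came from dissociated mouse tumours, labelled MB, captured with the 10x Genomics 3' chemistry, which counts unique molecular identifiers (UMIs) at the 3' end of transcripts. YSG males and YSG females had the genotype fYap1;fSMO-M2;hGFAPcre and are described as rescued, at end point. SG males and SG females had fSMO-M2;hGFAPcre, so SMO-M2, an active form of Smoothened, and hGFAPcre, which expresses Cre from the human GFAP promoter, were shared by all 4 groups, and floxed Yap1 set YSG apart. Each group was 1 library. How many animals went into a library, and their ages, is not given in the sources used here. Genotype therefore cannot be told apart from animal, age, dissociation or capture run, and every interval below is a 95% interval for counting error only.

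MYT1L is known as a repressor that keeps genes of other lineages off in neurons, and MYT1 shares its zinc finger type. The ELAVL proteins bind AU-rich and U-rich stretches of transcripts and are known for stabilising and splicing neuronal messages. RBFOX and NOVA proteins bind short motifs in introns and exons and set which exons neurons include. In the granule lineage of the cerebellum, dividing progenitors leave the cell cycle, switch on Cntn2 and Robo3, and later take up receptor and channel genes such as Grin2b and Kcna1.

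After filtering, the libraries held between 7193 and 8419 cells and between 58308739 and 86810253 UMIs, and the median cell had 5872.5 to 7419.5 UMIs. Yap1, the floxed gene, gave 10 UMIs in YSG males against 266 in SG males, and 3 UMIs in YSG females against 374 in SG females. Pairs of libraries shared 9 to 21 cell barcodes. Zic1, a defining gene of the granule lineage, stood at 687 CPM in YSG males, 476 CPM in SG males, 659 CPM in YSG females and 471 CPM in SG females. Cells with at least 5 UMIs of 12 cell cycle genes were called cycling. Of the rest, those with at least 2 UMIs of Cntn2 and Robo3 were called early, and those with at least 1 UMI of Grin2b and Kcna1 were called maturing, each where that pair outnumbered the other. The maturing minimum is 1 UMI because SG females had only 49 maturing cells at 2 UMIs, under the minimum of 50. The cycling, early and maturing states held 2833, 1571 and 240 cells in YSG males, 3363, 1547 and 147 in SG males, 2123, 1924 and 385 in YSG females, and 3373, 1301 and 125 in SG females. Between 38.2% and 65.3% of the maturing cells of a library sat at the 1-UMI minimum. Kcna1, a gate gene, itself stood at 5.54 CPM in YSG males against 2.58 CPM in SG males and at 24.6 CPM in YSG females against 2.58 CPM in SG females. Robo3, also a gate gene, stood in early cells at 4.22 CPM in YSG males against 57.97 CPM in SG males and at 39.3 CPM in YSG females against 65.5 CPM in SG females, while Cntn2 there was 596 CPM in YSG males against 651 CPM in SG males and 641 CPM in YSG females against 673 CPM in SG females.

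Myt1l was far higher in YSG tumours of both sexes. Its level over all kept cells was 96.5 CPM in YSG males against 20.4 CPM in SG males, and 109.5 CPM in YSG females against 14.9 CPM in SG females. These levels rest on 5877, 1489, 6386 and 1297 UMIs in that order. Both YSG libraries lay above both SG libraries, and the 4 counting intervals did not overlap. The level was 4.74-fold higher in YSG males than in SG males (interval 4.48 to 5.02) and 7.33-fold higher in YSG females than in SG females (interval 6.90 to 7.79). The gene spans 29528384 to 29923213 of chromosome 12, plus strand (mm10, GENCODE M21). The antisense transcripts C630031E19Rik and Gm20208 overlap it, and neither passed 3.52 CPM in any library's cycling, early or maturing cells.

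**Figure D1:**
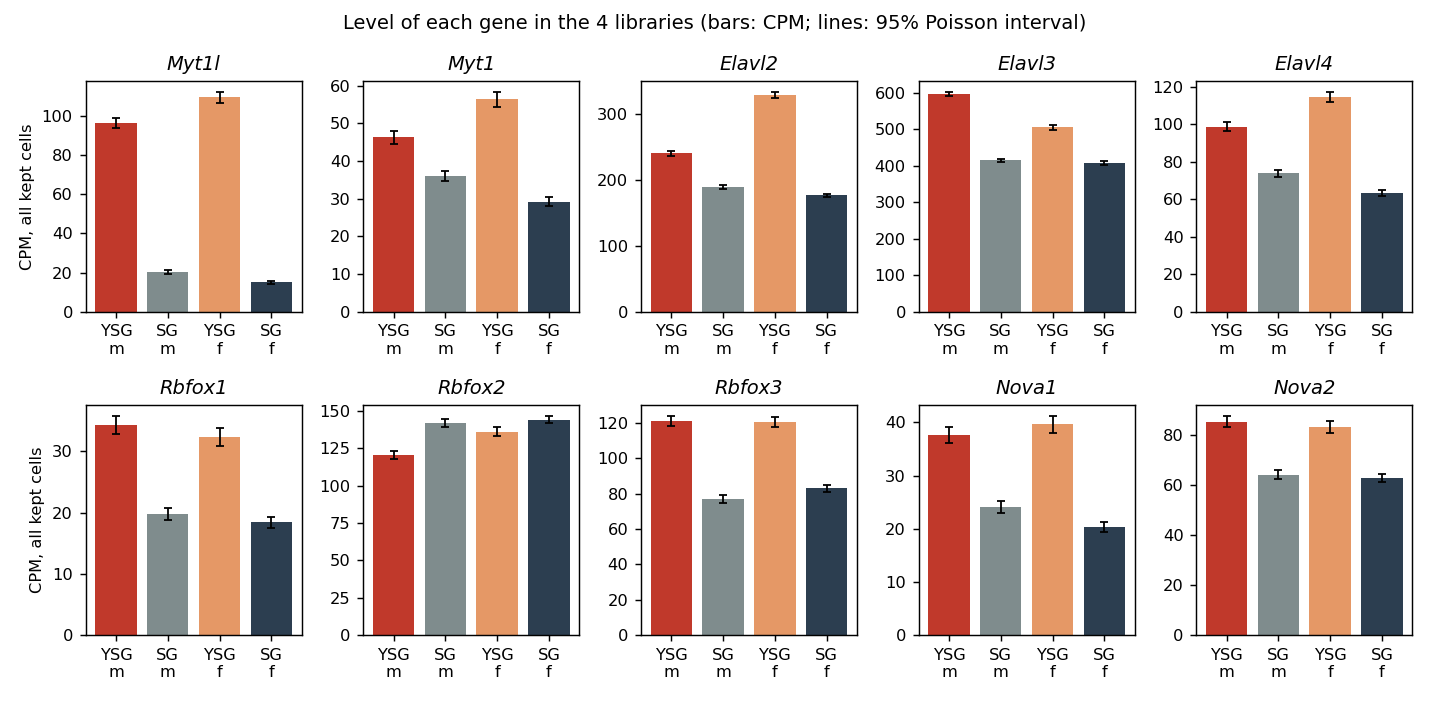
Level of each of the 10 genes in the 4 libraries, as CPM over all kept cells on axes that start at 0, with 95% Poisson intervals; m and f are males and females. Myt1l stands at 96.5 and 109.5 CPM in the YSG libraries against 20.4 and 14.9 CPM in the SG libraries, and Rbfox2 is the gene whose YSG bars are not above the SG bars.

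The gap in Myt1l was seen in every state. Of the 3 gated states it was widest in cycling cells as a ratio, while in CPM it was narrowest there. Cycling cells had 84.3 CPM in YSG males against 14.0 CPM in SG males, and 87.6 CPM in YSG females against 10.1 CPM in SG females. The folds there were 6.02 (interval 5.52 to 6.58) in males and 8.70 (interval 7.95 to 9.54) in females. Early cells had 156 CPM in YSG males against 56.3 CPM in SG males, and 167 CPM in YSG females against 52.1 CPM in SG females. The level in cycling YSG cells was thus above that in the early cells of either SG library. Free RNA was not separated from expression in these cells, and YSG leukocyte barcodes held 78.0 CPM (11 UMIs). The early folds were 2.77 (interval 2.51 to 3.05) in males and 3.21 (interval 2.91 to 3.53) in females. Cells that passed no gate had 82.2 CPM in YSG males against 14.5 CPM in SG males, and 88.7 CPM in YSG females against 8.21 CPM in SG females. Among maturing cells the levels were 132 CPM in YSG males against 43.2 CPM in SG males (181 and 34 UMIs), and 173 CPM in YSG females against 53.5 CPM in SG females (379 and 40 UMIs). The maturing log2 ratios were 1.61 (interval 1.07 to 2.18) in males and 1.69 (interval 1.22 to 2.20) in females. With the maturing minimum raised to 2 UMIs, which leaves 103 YSG and 51 SG cells in males, the log2 ratio for males was 0.69 and that for females 1.35, and with cells thinned to 2000 UMIs before gating the ratios were 1.32 and 0.94. The size of the maturing difference therefore depends on the gate. Markers of other cells also differed within the maturing state. The 6 oligodendrocyte markers summed there to 539 CPM in YSG males against 760 CPM in SG males and to 441 CPM in YSG females against 2740 CPM in SG females, and the 6 astroglial markers to 334 CPM in YSG males against 672 CPM in SG males and to 227 CPM in YSG females against 338 CPM in SG females. Barcodes past the lower of 2 minimums of other markers were 7.92% of maturing cells in YSG males against 14.3% in SG males and 4.94% in YSG females against 10.4% in SG females. Without them the maturing log2 ratios of Myt1l were 1.47 in males and 1.61 in females.

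As a ratio, early over cycling, Myt1l differed more between these states in SG, although the levels above show the wider gap in CPM in YSG. The ratio was 1.85-fold in YSG males and 1.91-fold in YSG females, against 4.02-fold in SG males and 5.17-fold in SG females. The 2 YSG intervals ended at 1.97 and 2.02, below the SG intervals, which began at 3.58 and 4.59. Within YSG females, maturing and early cells differed by less than counting error (1.03-fold, interval 0.93 to 1.15). In SG females the same ratio was 1.03 with an interval of 0.73 to 1.42. In YSG males the maturing level was lower than the early one (0.85-fold, interval 0.72 to 0.99).

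**Figure D2:**
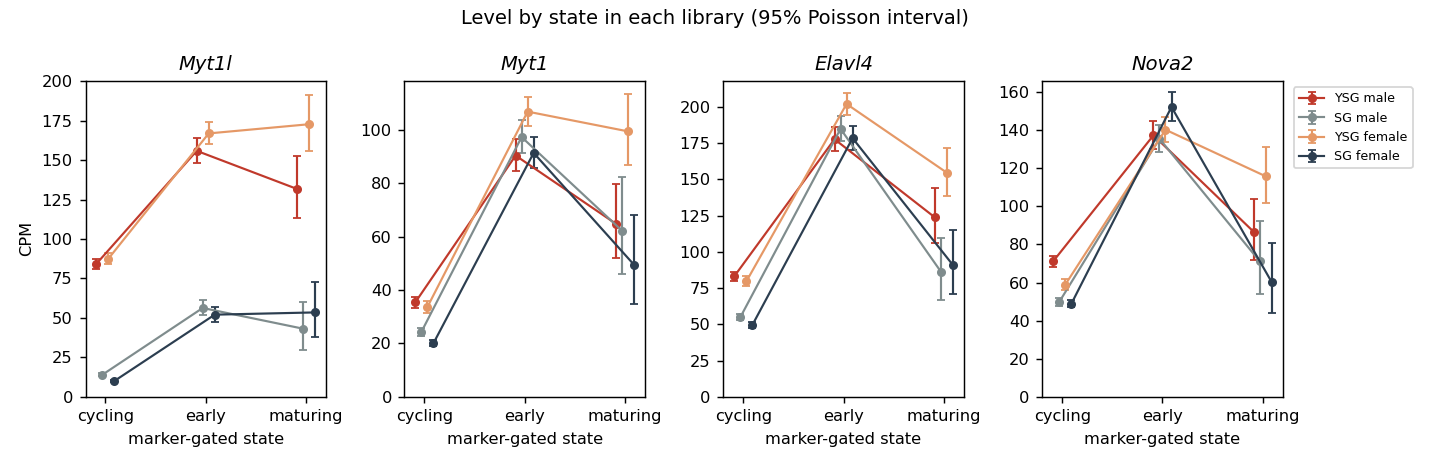
CPM of Myt1l, Myt1, Elavl4 and Nova2 in cycling, early and maturing cells of each library, with 95% Poisson intervals. Myt1l separates the genotypes in all 3 states (84.3 and 87.6 CPM in cycling YSG cells, 14.0 and 10.1 CPM in cycling SG cells), while Myt1, Elavl4 and Nova2 come together in early cells.

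The share of cells with a Myt1l UMI was also higher in YSG. When every cell was thinned to 2000 UMIs, and shallower cells were left out, 18.3% of cells in YSG males had a Myt1l UMI against 4.25% in SG males, and 20.3% in YSG females against 3.10% in SG females. Without thinning the shares were 41.8% in YSG males, 12.2% in SG males, 46.0% in YSG females and 10.96% in SG females. Thinned cycling cells had a share of 14.99% in YSG males against 2.12% in SG males, and 14.7% in YSG females against 1.54% in SG females. Thinning left out between 454 and 529 cells of a library.

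Barcodes with markers of other cell types were used as a rough background for these shares. They were not free of granule and neuronal transcripts. Over all libraries Zic1 stood at 359 CPM in astroglia-like barcodes, 243 CPM in leukocytes and 44.9 CPM in endothelial barcodes, and Elavl3 at 135, 151 and 78.5 CPM. Whether this was free RNA, mixed barcodes or their own expression was not tested. Barcodes with astroglial, leukocyte or endothelial markers had a thinned Myt1l share of 11.4% in YSG (4 of 35 cells, exact interval 3.20 to 26.7%) and of 0 of 84 cells in SG, which allows up to 3.57% by a floor of 3 counts and up to 4.30% by the exact interval. Thinning left out 39 of 74 such barcodes in YSG and 48 of 132 in SG, which were shallower. Over all 74 and 132, the median depths were 1666.5 UMIs in YSG and 4758 UMIs in SG, and the unthinned shares were 10.8% in YSG and 2.27% in SG. The shares in cycling SG cells, and that over all cells of SG females, are below both limits and are not read as expression, while the share over all cells of SG males, 4.25%, lies between them. The interval of the YSG background holds the YSG shares of cycling cells and of all cells, so with so few cells free RNA was not separated from expression in single YSG cells. Myt1l in those barcodes was 39.0 CPM in YSG astroglia-like cells (3 UMIs) against 6.23 CPM in SG ones (4 UMIs), and 78.0 CPM in YSG leukocytes (11 UMIs) against 0 UMIs in SG leukocytes.

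**Figure D3:**
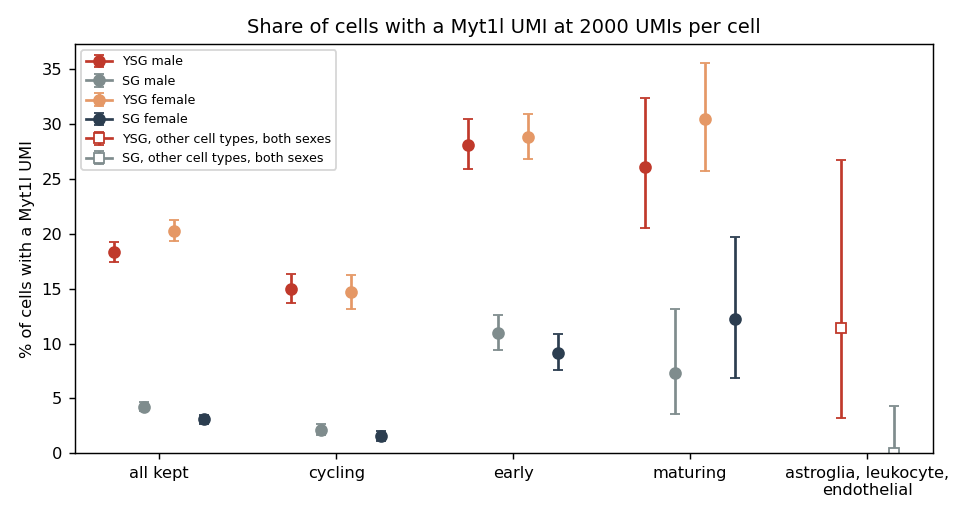
Percentage of cells with a Myt1l UMI after thinning to 2000 UMIs, by state and library, with exact binomial 95% intervals; open squares are barcodes with astroglial, leukocyte or endothelial markers, both sexes together. Among early cells the YSG libraries sit at 28.1% and 28.8% and the SG libraries at 10.9% and 9.14%, and the YSG square at 11.4% has an interval up to 26.7%.

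Otx1 is a homeobox gene also higher in YSG (58.1 CPM in YSG males against 10.7 CPM in SG males, 72.1 CPM in YSG females against 10.2 CPM in SG females). Cells with an Otx1 UMI did not have a higher Myt1l level than cells without one. In YSG males Myt1l was 95.4 CPM in cells with an Otx1 UMI and 97.3 CPM in cells without one, and in YSG females 107 CPM and 112 CPM. The SG libraries gave 17.4 CPM with and 20.8 CPM without an Otx1 UMI in males, and 14.5 CPM with and 15.03 CPM without in females. Each of these pairs lies within overlapping counting intervals. The cells with an Otx1 UMI were deeper, with medians of 8018 against 5385 UMIs in YSG males and 8462 against 5842 UMIs in YSG females. In SG the medians were 10080 against 6040 UMIs in males and 13286 against 7158.5 UMIs in females. The split was made without matching depth or state, so it cannot show whether Otx1 marks cells with more Myt1l.

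Start regions were read for the genes from the RefSeq promoter table (build GRCm38.p6), in windows from 250 bases before to 50 bases after a start. The table held 24 windows for 9 of the 10 genes. In all, 3 motifs were searched on both strands. The TEAD core GGAATG, the letters bound by TEAD factors, through which YAP1 acts, was in 2 of the 24 windows, against 14.7% of all 32851 windows. The E-box CAGCTG, of the kind bound by basic helix-loop-helix factors, was in 9 of the 24 windows, of 6 genes, against 16.3% of all windows. The GLI letters GACCACCCA were in 0 of the 24 and in 0.253% of all windows. The windows of Myt1l and Nova1 with a TEAD core or an E-box are shown because Myt1l differed most between genotypes and Nova1 is the other gene with a TEAD core. Capitals mark the motif letters, on either strand, and several windows of a gene can overlap.
Myt1l, chr12:29533135-29533434, plus strand: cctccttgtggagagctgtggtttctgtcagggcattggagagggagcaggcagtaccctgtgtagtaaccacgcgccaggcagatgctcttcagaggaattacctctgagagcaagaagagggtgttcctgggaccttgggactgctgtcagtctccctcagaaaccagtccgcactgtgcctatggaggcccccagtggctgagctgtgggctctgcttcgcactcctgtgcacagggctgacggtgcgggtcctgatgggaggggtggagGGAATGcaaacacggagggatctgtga
Myt1l, chr12:29534655-29534954, plus strand: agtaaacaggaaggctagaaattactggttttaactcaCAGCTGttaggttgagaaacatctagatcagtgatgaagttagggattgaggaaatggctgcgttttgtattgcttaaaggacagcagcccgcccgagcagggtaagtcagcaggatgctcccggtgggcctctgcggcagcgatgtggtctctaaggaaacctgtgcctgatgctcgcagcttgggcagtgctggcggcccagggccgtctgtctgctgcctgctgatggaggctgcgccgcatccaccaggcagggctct
Nova1, chr12:46818718-46819017, minus strand: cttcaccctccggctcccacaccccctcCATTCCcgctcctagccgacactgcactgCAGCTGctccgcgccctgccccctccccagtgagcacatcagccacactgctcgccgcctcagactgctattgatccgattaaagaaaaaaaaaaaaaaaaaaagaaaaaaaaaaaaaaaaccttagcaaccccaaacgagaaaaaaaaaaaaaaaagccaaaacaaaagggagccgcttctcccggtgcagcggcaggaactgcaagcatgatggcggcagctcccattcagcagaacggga
The first window holds the TEAD core, the second the E-box, and the Nova1 window holds both, with the TEAD core written as its reverse complement. These letters are a description of the windows and not of binding.

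Myt1, on chromosome 2 at 181763332 to 181827797, was higher in YSG by less. Over all cells it stood at 46.3 CPM in YSG males against 36.0 CPM in SG males (1.29-fold, interval 1.22 to 1.36), and at 56.3 CPM in YSG females against 29.2 CPM in SG females (1.93-fold, interval 1.83 to 2.03). In early cells the genotypes came close, with 90.3 CPM in YSG males against 97.2 CPM in SG males and 107 CPM in YSG females against 91.3 CPM in SG females. The cycling levels were 35.4 CPM in YSG males against 24.3 CPM in SG males and 33.6 CPM in YSG females against 20.01 CPM in SG females. Myt1 is also a gene of oligodendrocyte precursors, whose 5 markers summed to 82.7 CPM in YSG males against 41.5 CPM in SG males, and to 88.7 CPM in YSG females against 39.0 CPM in SG females. In cycling cells alone they summed to 80.9 CPM in YSG males against 36.9 CPM in SG males, and to 87.2 CPM in YSG females against 37.7 CPM in SG females. Precursor-like cells by a stricter marker minimum were 5 in YSG and 17 in SG, so these sums do not count such cells. With the barcodes that pass the stricter marker minimum left out, which include 22 precursor-like cells, the log2 ratios of Myt1 were 0.37 in males and 0.95 in females, against 0.36 and 0.95 with them.

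The 3 neuronal ELAVL genes were each higher in YSG. Elavl2 lies on chromosome 4 at 91250763 to 91400785, Elavl4 on chromosome 4 at 110203722 to 110351909, and Elavl3 on chromosome 9 at 22015005 to 22052023. Elavl2, the earliest of the family in many neuron types, had 241 CPM in YSG males against 190 CPM in SG males, and 329 CPM in YSG females against 177 CPM in SG females. Elavl3, the family member that is used as a general neuronal marker, had 596 CPM in YSG males against 415 CPM in SG males, and 505 CPM in YSG females against 408 CPM in SG females. Elavl4 had 98.7 CPM in YSG males against 73.7 CPM in SG males, and 114 CPM in YSG females against 63.1 CPM in SG females. The folds were 1.27, 1.44 and 1.34 in males and 1.86, 1.24 and 1.81 in females, for Elavl2, Elavl3 and Elavl4. No YSG interval overlapped its SG interval, but these intervals hold counting error only and are narrow at this depth. The share of all genes with intervals apart was not computed, so nothing is read from this. The 3 genes did not share 1 order of the sexes, since Elavl3 was higher in YSG males and the others in YSG females.

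In early cells most of that difference was gone, while it remained in cycling cells and, with the reported gates, in maturing cells. For Elavl2, Elavl3 and Elavl4 the cycling folds were 1.29, 1.47 and 1.52 in males and 1.76, 1.12 and 1.61 in females. The maturing folds, which depend on the gate, ran from 1.34 to 1.54 in males and from 1.63 to 1.80 in females. Under other settings the maturing log2 ratio fell as low as -0.23 for Elavl2 in males. For Elavl4 it fell to -0.30 in males and -0.16 in females. Elavl3 in both sexes and Elavl2 in females stayed above 0 throughout. Early Elavl3 was 811 CPM in YSG males against 697 CPM in SG males, and 727 CPM in YSG females against 731 CPM in SG females. Early Elavl4 was 178 CPM in YSG males against 185 CPM in SG males, and 202 CPM in YSG females against 178 CPM in SG females. Elavl2 was the exception in females, with 490 CPM in early YSG cells against 308 CPM in early SG cells (log2 0.67), and 332 CPM in early YSG cells against 297 CPM in early SG cells of males (log2 0.16). Elavl1, the ubiquitous relative outside the neuronal group, stood at 249 CPM in YSG males against 229 CPM in SG males and at 205 CPM in YSG females against 237 CPM in SG females.

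The RBFOX genes did not move together. Rbfox1 lies on chromosome 16 at 5885355 to 7411526, Rbfox2 on chromosome 15 at 77078990 to 77307004, and Rbfox3 on chromosome 11 at 118489762 to 118911597, and each overlaps an annotated noncoding or antisense transcript whose share of reads was not analysed here. Rbfox1, a splicing regulator of neurons and muscle, had 34.3 CPM in YSG males against 19.8 CPM in SG males, and 32.3 CPM in YSG females against 18.4 CPM in SG females. Rbfox3, known as NeuN, had 121 CPM in YSG males against 76.9 CPM in SG males, and 120.4 CPM in YSG females against 82.8 CPM in SG females. Rbfox2, which is also expressed outside neurons, had 121 CPM in YSG males against 142 CPM in SG males, and 136 CPM in YSG females against 144 CPM in SG females. Rbfox2 was thus the single gene of the 10 that was lower in YSG in both sexes, the log2 ratio being -0.23 among males and -0.08 among females. The fold of Rbfox1 was 1.73 in males and 1.75 in females, and that of Rbfox3 was 1.57 in males and 1.45 in females. In early cells Rbfox3 kept a log2 ratio of 0.55 in males and 0.29 in females, and Rbfox1 one of 0.37 in males and 0.19 in females.

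The NOVA genes, first known as targets of autoimmune sera in patients with motor and eye movement disorders, were also higher in YSG. Nova1 lies on chromosome 12 at 46694517 to 46818929 and Nova2 on chromosome 7 at 18925888 to 18965319. Nova1 had 37.6 CPM in YSG males against 24.1 CPM in SG males, and 39.6 CPM in YSG females against 20.3 CPM in SG females. Nova2 had 85.2 CPM in YSG males against 64.0 CPM in SG males, and 82.9 CPM in YSG females against 62.8 CPM in SG females. In early cells Nova1 remained apart (51.8 CPM in YSG males against 38.9 CPM in SG males, 61.1 CPM in YSG females against 33.2 CPM in SG females). Nova2 did not, at 137 CPM in YSG males against 136 CPM in SG males and 140.3 CPM in YSG females against 152 CPM in SG females.

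**Figure D4:**
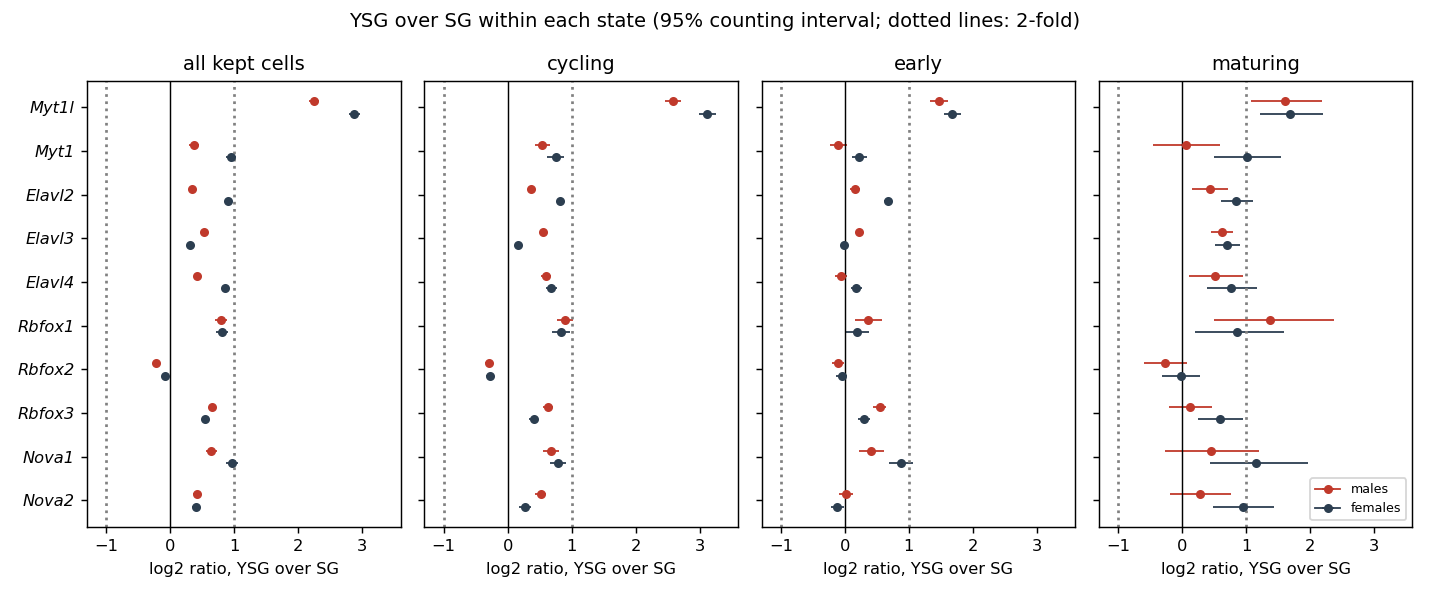
Log2 ratio of YSG over SG for each gene in all kept cells and in each state, with 95% counting intervals; dotted lines mark 2-fold. Myt1l lies beyond 2-fold in every panel (2.25 and 2.87 in all cells of males and females), and Rbfox2 lies left of 0 in every panel.

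Myt1l was the 1 gene of the 10 that was 2-fold or more higher in all kept cells, counted with 1 CPM added to each level. In males 1.56% of 10180 genes were called higher by that rule, in females 3.11% of 10379 genes, and in both sexes 1.1% of 10090 genes. None of the 10 was 2-fold or more lower, where 2.37% of all genes were lower in males and 2.45% in females. Myt1l ranked 12 of 10180 genes in males and 9 of 10379 genes in females, counted from the highest ratio. It was also the 1 gene of the 10 past 2-fold in cycling cells, where 1.89% of genes in males and 2.24% in females were called, and in early cells, where 1.42% in males and 2.28% in females were. With cells thinned to 2000 UMIs, Rbfox1 in cycling males (log2 1.03) and Nova1 in early females (log2 1.09) passed 2-fold as well. In maturing cells it was joined by Rbfox1 in males (42.9 CPM in YSG against 16.5 CPM in SG, from 59 and 13 UMIs) and by Nova1 in females (53.8 CPM in YSG against 24.1 CPM in SG, from 118 and 18 UMIs), where 5.45% of genes in males and 6.85% in females were called. Each of these joined calls was lost in 3 of 13 alternatives, and with the early and maturing minimum at 3 UMIs the log2 ratio was 0.40 for Rbfox1 in males and -0.27 for Nova1 in females. Myt1 in maturing females was at the line, with a log2 ratio of 1.01 when no CPM was added. Since these values chose the genes, the shares are the background and nothing is read from them.

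The 9 genes without Myt1l had a median log2 ratio of 0.42 in males and 0.78 in females, against -0.01 in males and 0.00 in females over all genes tested. In each sex 8 of the 9 were above 0, where 48.6% of all genes in males and 50.2% in females were. In early cells 6 of the 9 were above 0 in each sex, where 49.3% of all genes in males and 46.3% in females were. The early medians were 0.16 in males and 0.19 in females. The genes were chosen on these values, so nothing is read from the counts. The 7 genes of the granule lineage list, by comparison, had medians of 0.43 in males and 0.34 in females over all cells.

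**Figure D5:**
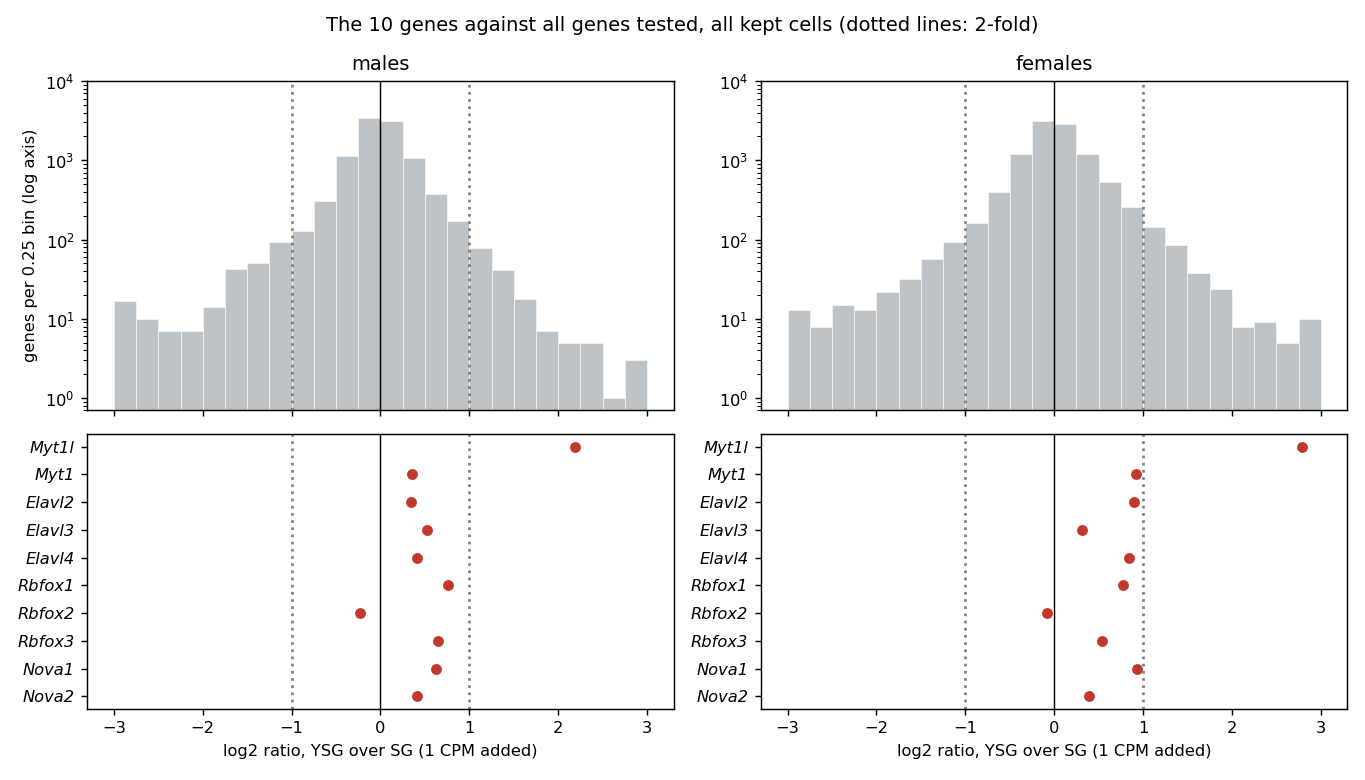
Upper panels: number of genes per bin of the log2 ratio of YSG over SG in all kept cells, on a log axis, with ratios beyond 3 placed in the end bins. Lower panels: the 10 genes on the same axis; Myt1l is at 2.19 in males and 2.79 in females with 1 CPM added, and the others lie between -0.23 and 0.93.

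The make-up of the libraries moved with the genotype. Cycling cells were 35.9% of cells in YSG males against 39.9% in SG males and 29.5% in YSG females against 44.1% in SG females. Early cells were 19.9% in YSG males against 18.4% in SG males and 26.7% in YSG females against 17.0% in SG females. Giving the YSG library the state shares of UMIs of the SG library of the same sex left the Myt1l log2 ratio at 2.21 for males and 2.71 for females. In females the same step gave Myt1 a log2 ratio of 0.62, where the unadjusted ratio was 0.95, Nova2 one of 0.18, where it was 0.40, and Elavl3 one of 0.17, where it was 0.31. Among males Myt1 moved most, with 0.31 adjusted and 0.36 unadjusted. In whole libraries, fewer cells of a state and less RNA per cell cannot be told apart.

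Markers of other cells also moved, in both directions. The 7 leukocyte markers, all detected in each library, summed to 17.2 CPM in YSG males against 4.01 CPM in SG males and to 30.2 CPM in YSG females against 6.21 CPM in SG females. The 6 oligodendrocyte markers summed to 109 CPM in YSG males against 64.0 CPM in SG males and to 89.0 CPM in YSG females against 59.2 CPM in SG females. Oligodendrocyte-like barcodes by the stricter minimum were 38 in YSG and 39 in SG, both sexes together. Lower in YSG of both sexes were the 5 choroid plexus markers (5.995 CPM in YSG males against 17.2 CPM in SG males, 3.98 CPM in YSG females against 13.99 CPM in SG females), the 6 endothelial markers (5.16 CPM in YSG males against 9.23 CPM in SG males, 9.71 CPM in YSG females against 13.04 CPM in SG females) and the 4 fibroblast or mural markers (1.86 CPM in YSG males against 6.23 CPM in SG males, 1.54 CPM in YSG females against 4.10 CPM in SG females). The 6 immediate early genes, which respond to dissociation, summed to 1487 CPM in YSG males against 1800.1 CPM in SG males and to 984 CPM in YSG females against 1539.9 CPM in SG females. They did not all move with the sum: 3 of the 6 had a log2 ratio above 0 in males and 2 of the 6 in females, where 48.6% and 50.2% of all genes did. Without the barcodes past the stricter minimum of other markers, Myt1l kept log2 ratios of 2.24 (males) and 2.87 (females). The part of dissociation in the result was not tested.

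Each of the 10 genes had a higher level in early than in cycling cells of every library. The share of all genes that did so, at any size of difference, was not computed, so nothing is read from this count. Myt1 and Elavl4 were 2-fold or more higher in early than in cycling cells in all 4 libraries, where 2.31% of 9810 genes were. In both SG libraries Myt1l and Nova2 were as well, making 4 of the 10, where 5.21% of genes were called. In both YSG libraries Myt1 and Elavl4 alone were called, where 2.84% of genes were. Elavl4 was 2.14-fold higher in early than in cycling cells of YSG males.

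By the pattern over 12 values, 3 states in 4 libraries, the genes most like Myt1l among 10094 genes included Mtss1 (Pearson r 0.98), Kcnj6 (0.98), Kcnb2 (0.97), Serp2 (0.97), Btbd8 (0.97), Dbndd1 (0.97), App (0.97), Nrxn2 (0.96) and Synpr (0.96). Kcnj6 and Kcnb2 encode potassium channel subunits, and Nrxn2 and Synpr synaptic proteins. Kcnj6 in cycling cells was 36.0 CPM in YSG males against 8.01 CPM in SG males, and 39.4 CPM in YSG females against 7.17 CPM in SG females. The 12 values share 4 libraries, so r is a description. The other genes had other neighbours: A330076H08Rik, Gng3 and Rtn1 for Myt1 (0.99 each), Hnrnph3, Mapk7 and Gng2 for Elavl2 (0.97 to 0.98), Cep170, Ebf3 and Ina for Elavl3 (0.98 to 0.99), and Tubb3, Svip and Nhlh2 for Elavl4 (0.99 to 0.997). They were Trim2, Syp and Arhgef10l for Rbfox1 (0.96 to 0.97), Blcap, Cited2 and Scand1 for Rbfox2 (0.97 to 0.98), and Snap91, Tnik and Ackr1 for Rbfox3 (0.97 to 0.98). For Nova1 they were Mtmr4, Anks1 and Zfp292 and for Nova2 Add2, Necab3 and Basp1 (0.98 for each). Tubb3 encodes a neuronal tubulin, and Syp and Snap91 encode proteins of synaptic vesicles. Among the 10 genes themselves, Elavl4 and Nova2 were the most alike (0.97), and Myt1l and Rbfox2 the least (0.19).

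Lists of related genes were described with 1 CPM added to each level, and their counts stand beside the shares over all genes, 1.56% higher and 2.37% lower in males, 3.11% higher and 2.45% lower in females. Of 41 other RNA-binding proteins of neurons and splicing, 37 were measured in males and in females. None was past 2-fold in males, and 1 was higher in females, Celf4, a CUG-binding protein of neurons (154 CPM in YSG against 72.0 CPM in SG females, 125 CPM against 77.2 CPM in males), named after its values were seen. A count of 1 in 37 is near the 3.11% over all genes. The medians were 0.05 in males, with Tardbp at the middle, and -0.09 in females, with Cpeb3. Ptbp1, which holds neuronal exons back in dividing cells, had 171 CPM in YSG males against 201 CPM in SG males and 125 CPM in YSG females against 201 CPM in SG females. Srrm4, a splicing activator of neuronal microexons, had 222 CPM in YSG males against 161 CPM in SG males and 213 CPM in YSG females against 141 CPM in SG females. Ptbp1 and Srrm4 were under 2-fold in both sexes and were also named after their values were seen. The list went both ways, with 20 of 37 above 0 in males and 17 of 37 in females, where 48.6% and 50.2% of all genes were.

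Among 14 repressors and partners of neuronal genes, 13 were measured. Rest, which keeps neuronal genes off outside neurons, was the 1 gene past 2-fold lower in both sexes, at 9.23 CPM in YSG males against 27.9 CPM in SG males and at 11.8 CPM in YSG females against 33.2 CPM in SG females. St18, the other relative of Myt1l, had 101 CPM in YSG males against 66.4 CPM in SG males and 155 CPM in YSG females against 56.8 CPM in SG females. In females St18, Neurod1, Neurod2 and Mir124a-1hg were past 2-fold higher and Pou3f2 was lower (85.1 CPM in YSG against 182 CPM in SG), named after their values were seen. The list medians were 0.06 in males, with Sin3b at the middle, and 0.04 in females, with Hdac2.

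Of 15 progenitor genes of the Notch, Id and Sox families, 12 were measured. None was 2-fold or more higher in males and 2 were in females, Id1 and Id2, while 1 was lower in males and 5 were in females, Notch1, Notch2, Hes1, Id3 and Sox2, of which all but Sox2 are named after their values were seen. Sox2, a gene of neural stem and progenitor cells, was past 2-fold lower in both sexes, at 23.1 CPM in YSG males against 54.7 CPM in SG males and at 24.1 CPM in YSG females against 67.2 CPM in SG females. The medians were -0.35 in males, near Id4 (6.50 CPM in YSG against 8.33 CPM in SG), and -0.64 in females, near Sox9 (508 CPM in YSG against 675 CPM in SG). Of 11 transcripts described as bound by neuronal ELAVL proteins, 9 were measured. One of them is Nova1, also among the 10. Gap43, which encodes a growth cone protein, was the 1 gene past 2-fold, and higher in both sexes, at 440 CPM in YSG males against 218 CPM in SG males and at 592 CPM in YSG females against 233 CPM in SG females. Msi1 stood at the median, at 0.09 in males and 0.21 in females.

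Sex was compared within each genotype. Over all kept cells, Myt1l in males was 0.88-fold the level in females in YSG (interval 0.85 to 0.91), and 1.36-fold in SG (interval 1.26 to 1.47), so the order of the sexes over all kept cells was opposite in the 2 genotypes. By state this held less well. In cycling cells the YSG ratio was 0.96 with an interval of 0.911 to 1.017, in early cells the SG ratio was 1.08 with an interval of 0.96 to 1.22, and in maturing cells males were below females in both genotypes (0.76-fold in YSG, 0.81-fold in SG with an interval of 0.50 to 1.31). Elavl2 was 0.73-fold in YSG and 1.07-fold in SG, male over female. Rbfox3 was 1.01-fold in YSG (interval 0.97 to 1.04) and 0.93-fold in SG (interval 0.90 to 0.96). Whether the genotype difference itself differs between the sexes was not tested, because each combination was 1 library.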

How the data were processed

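The authors deposited raw counts: whole numbers of UMIs per gene and barcode, not normalized, made with Cell Ranger 5.0.1 per the file headers and on mm10 per the submitters' processing notes. Whether intronic reads were counted is not given in the sources used here. Kept barcodes had at least 500 UMIs, at least 300 genes and at most 20% mitochondrial UMIs, with no doublet removal. Scrublet, run for an alternative only, marked 0% of cells in each library by its own threshold, which does not show that doublets were absent. Python 3.11.15, numpy 2.4.6, pandas 2.3.3, scipy 1.17.1, scanpy 1.11.5 and matplotlib 3.10.9 were used.

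UMIs were summed per library and state and divided by the summed total (CPM). Levels carry exact Poisson intervals, folds exact conditional binomial intervals and shares Clopper-Pearson intervals, all at 95%, treating UMIs as independent. Each group was a single library, so no test was made. Calls of 2-fold or more used 1 CPM added to each level and genes at 5 CPM or more in 1 library. Likeness was Pearson's r over 12 values, among genes that reached 10 CPM. The genes named were the 10 most like Myt1l (1 of them is not reported here), the 3 most like each of the others, the list genes past 2-fold in both sexes, and the one nearest each list's median. The members and lists were chosen with earlier results of these data known. Other cell types were taken at 5 UMIs or more of at least 3 markers that made up at least 0.3% of a cell's UMIs; this minimum was set after seeing the data, because cells at the planned 2 markers also carried granule genes. The code for ratios and intervals was checked on simulated independent Poisson counts. These hold no variation between cells, animals or captures, so the check says nothing about such variation. Promoter windows are RefSeq's (GRCm38.p6) and gene positions GENCODE M21's.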

Additional observations from a re-analysis of the deposited data

How the results depend on the processing

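Across 8 alternatives, the log2 ratio of Myt1l over all kept cells stayed between 2.16 and 2.26 in males and between 2.79 and 2.93 in females. The lowest male value came from cells thinned to 2000 UMIs, 2.16, which lay outside the counting interval. The maturing state was less stable. With early and maturing minimums of 3 UMIs Myt1l gave 0.51 for males and 1.21 for females on the log2 scale, with 2 UMIs 0.69 for males, and with thinned cells 0.94 in females; the cause was not tested. At 3 UMIs the maturing state held 46 cells in YSG males, 32 in SG males, 148 in YSG females and 28 in SG females. Of the values past 2-fold as reported, or at 2-fold with no CPM added, 2 changed sign: Myt1 in maturing females with thinned cells, at -0.18, and Nova1 in maturing females with the 3-UMI minimum, at -0.27. Nova1 over all cells of females lay on the 2-fold line, between 0.92 and 1.09, and passed it in 3 of 8 alternatives. Of 940 values over 80 results, 869 stayed inside the counting interval of the reported value, 69 left it, and those 2 changed sign. Counting values below 2-fold too, the sign changed 26 times, in 14 results, and 21 of the 26 were in the maturing state. Among them were Myt1 in maturing males (5 of 13 alternatives), Rbfox2 in maturing females (4), Elavl3 in early females (3) and Rbfox3 in maturing cells (2 in each sex). Elavl4 changed sign in maturing cells too (1 in males, 2 in females), as did Elavl2 in maturing males (1). Tied doublet scores meant that removing the top 6% took 4.85% to 5.30% of cells. The share of genes 2-fold or more higher was 0.906% in males and 1.84% in females with no filter, and 1.26% and 2.36% at 20 CPM or more. The lower share was 1.42% in males and 1.49% in females with no filter, and 1.74% and 1.92% at 20 CPM or more. No paired analysis was possible because each group held 1 library and 1 replicate number; a fit with sex as a block, which would use the sexes as replicates, was not made. Depth limits the maturing state, where SG males had 34 and SG females 40 Myt1l UMIs.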
